A study of Mus musculus with 6 samples.

Results

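Trp63, which encodes the transcription factor p63, the cadherin gene Fat2, and 8 genes of the desmosome or of p63-dependent epithelium (Dsg2, Dsg3, Dsc2, Dsc3, Dsp, Pkp1, Perp and Sfn) were followed in ovarian RNA of mice with high and low litter size. They were taken by name, 10 of the 36727 genes in the table, and all 10 were found and measured. The set was chosen because the measured levels of Trp63 and Fat2 separated the litter size groups. The differences between the groups are therefore given for all 10 genes as a description, with no p-value for any single gene. The study compared estrous-phased ovarian tissue of female F4 inbred Swiss albino mice aged 135 to 140 days. High litter size was represented by 3 samples, numbered 1, 3 and 4, and low litter size by 3, numbered 1, 2 and 5. Strain, sex, age range and tissue are shared by both groups, and litter size is the only difference between them that the labels give. Whether each sample is a different animal is not stated, so every spread and p-value below measures the variation between these samples, which may be technical.

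p63, the protein of Trp63, is a transcription factor of the p53 family. It is made in a long TA form, which is abundant in resting oocytes and guards them against DNA damage, and in a deltaN form, which maintains the basal cells of stratified epithelia such as epidermis. Desmosomes are the spot-like junctions that tie the keratin filaments of neighbouring epithelial cells together. Their cadherins, the desmogleins (Dsg) and desmocollins (Dsc), span the membrane, and plakophilins, plakoglobin (Jup) and desmoplakin (Dsp) link them to keratin. Dsg2 and Dsc2 are found in simple as well as stratified epithelia. Dsg3 and Dsc3 are typical of the lower layers of stratified epithelium, and Pkp1 is a plakophilin of stratified epithelium.

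Total estimated counts were 18038084 to 19123306 in the high and 17620903 to 24758222 in the low libraries, and the unit of level below is CPM, the count per 1000000 counts of the TMM-scaled library. A count of 0 allows a level of up to 0.117 to 0.187 CPM, depending on the library, by counting error alone. Some ovarian transcripts were uneven between the libraries within both groups. Inha, the inhibin subunit made by granulosa cells, had 1.64, 2.12 and 199 CPM with high litter size (replicates 1, 3 and 4), against 182, 1.23 and 109.8 CPM with low litter size (replicates 1, 2 and 5). Hsd3b1, a steroid-synthesis enzyme, had 1.69, 5.06 and 3261 CPM across the high libraries, against 332, 1.81 and 950 CPM across the low ones. High replicates 1 and 3 and low replicate 2 thus held little Inha and Hsd3b1. Not every gene of these cell types was so uneven. Gja1, listed as a granulosa marker, had 233, 169 and 441 CPM across the high libraries, against 377.5, 297 and 670 CPM across the low ones. Scarb1 is listed as a theca and luteal marker and was picked out after its values were seen. It had 158, 183 and 783 CPM across the high libraries, against 47.1, 58.7 and 169 CPM across the low ones. Cyp11a1, on the same list, had 2.25, 5.81 and 2681 CPM across the high libraries, against 225, 3.04 and 856.5 CPM across the low ones. The log2 fold change of each of the 10 genes is also given for high replicate 4 against low replicates 1 and 5, a choice made after the values were seen.

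The start of the Trp63 coding sequence shows why its count covers both forms. In the GENCODE M21 annotation of GRCm38, 4 of its 8 transcripts begin with the TA start and 4 with the deltaN start, and their first exons lie 118151 bases apart on chromosome 16. The TA form has 324 coding bases of its own in 3 exons, and the deltaN form has 42 in 1 exon. From position 25820388 onwards both share their coding exons. The first coding exon stretches are shown on the plus strand, in lower case with the start codon in capitals, at chr16:25684290-25684349 for TA and chr16:25802060-25802101 for deltaN.
Trp63 TA start: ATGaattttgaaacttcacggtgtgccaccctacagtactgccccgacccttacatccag
Trp63 deltaN start: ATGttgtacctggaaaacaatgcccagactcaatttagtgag
The deposited values are 1 count per gene, so the share of each form in these libraries was not analysed here.

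Of the 10 genes, Dsp, Sfn and Fat2 had an entry in the RefSeq promoter table (GRCm38.p6), and the windows of Dsp and Sfn are shown because both genes had lower levels in the high litter size group. Each window is the 250 bases before the start site, chr13:38151044-38151293 on the plus strand for Dsp and chr4:133602169-133602418 on the minus strand for Sfn. Capitals mark an exact match to the p53-family half-site, the short palindromic element, the same on both strands, that p53, p63 and p73 all recognise in pairs.
Dsp promoter: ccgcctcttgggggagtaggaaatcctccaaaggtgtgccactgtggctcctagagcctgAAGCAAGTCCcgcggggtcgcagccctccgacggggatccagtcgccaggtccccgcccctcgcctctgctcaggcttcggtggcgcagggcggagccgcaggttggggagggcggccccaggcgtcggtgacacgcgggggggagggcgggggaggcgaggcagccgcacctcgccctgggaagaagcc
Sfn promoter: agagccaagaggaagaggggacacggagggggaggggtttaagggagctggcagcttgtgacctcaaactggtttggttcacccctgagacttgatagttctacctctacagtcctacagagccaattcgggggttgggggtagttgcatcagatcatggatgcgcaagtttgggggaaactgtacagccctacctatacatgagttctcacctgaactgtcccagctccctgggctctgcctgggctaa
The Dsp window held 1 match, AAGCAAGTCC, which starts 190 bases before the start site, and the Sfn and Fat2 windows held none. Among all promoter windows of this length, 2341 of 32851 (7.13%) held at least 1 match, and among those of the related gene lists described below 11 of 94 (11.7%) did. The Fat2 window, chr11:55312258-55312507 on the minus strand, lies inside the GENCODE M21 span of that gene, 55250609 to 55336564. A match is a run of letters and not evidence of binding.

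**Figure D1:**
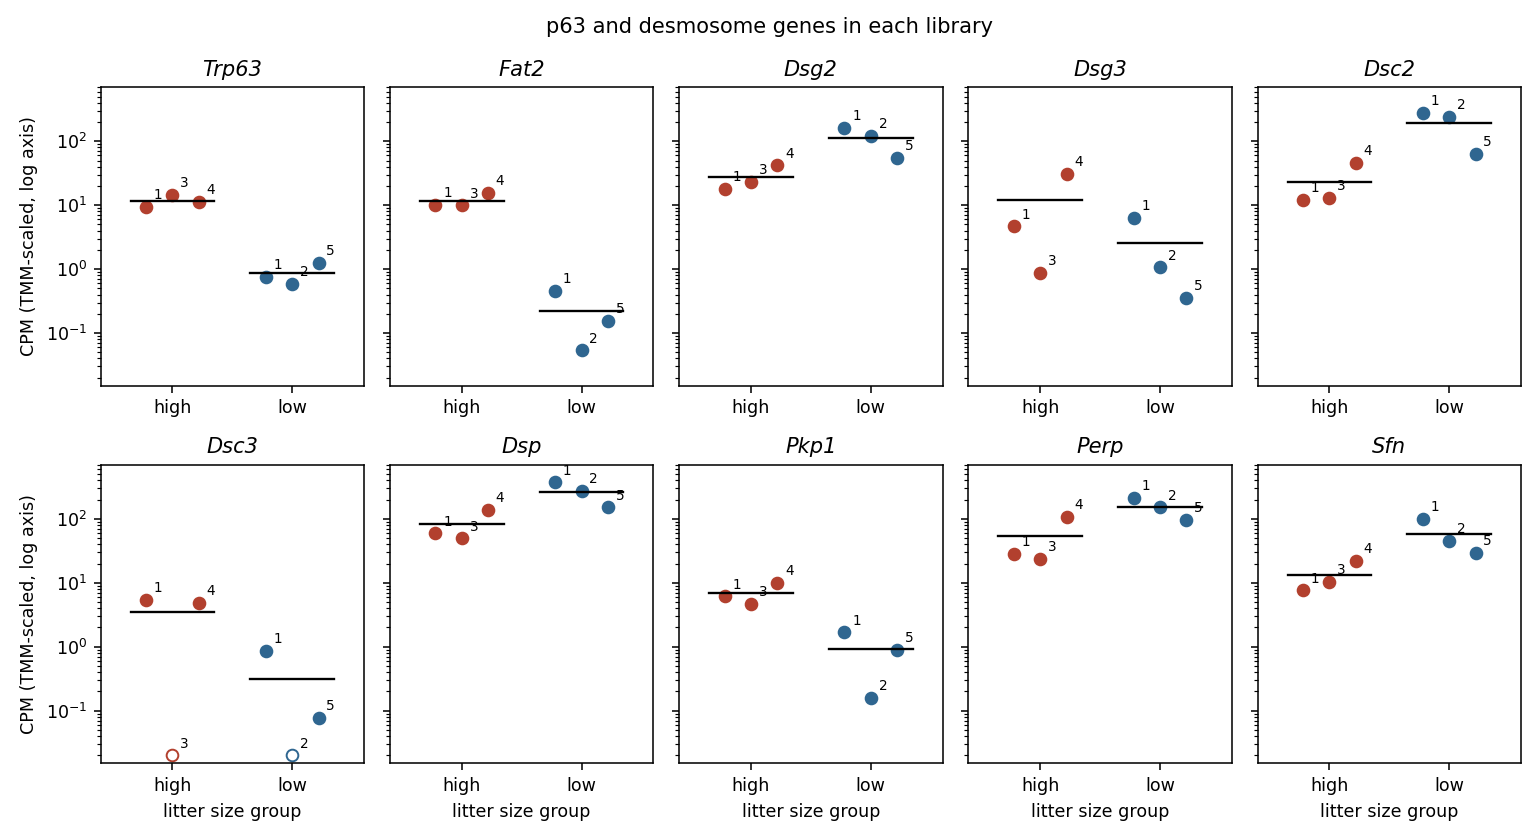
Level of each of the 10 genes in each library, in CPM on a log axis, with the high litter size group on the left and the low litter size group on the right of each panel. Points are libraries labelled by replicate number, and values of 0 are drawn as open circles at the bottom of the axis. Trp63, Fat2 and Pkp1 lie higher in all 3 high libraries, Dsg2, Dsc2, Dsp and Sfn lie lower in all 3, and Dsg3, Dsc3 and Perp overlap.

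The genes split evenly by direction. Trp63, Fat2, Dsg3, Dsc3 and Pkp1 had higher mean levels in the high litter size group, with log2 fold changes of 2.23 to 5.72. Dsg2, Dsc2, Dsp, Perp and Sfn had lower mean levels, with log2 fold changes of -3.07 to -1.54. The median of the 10 log2 fold changes was 0.34, against 0.068 over all 16455 genes tested, and all 10 had passed the filter on low counts. Each direction kept 5 genes when 1 library was left out, but the median then ran from -1.11 without high replicate 4 to 1.22 without low replicate 1. The groups did not overlap for 3 of the 10 in the higher direction, where 8.75% of all tested genes did the same, and for 4 of the 10 in the lower direction, against 10.8% of all genes. Because the set was chosen on this contrast, nothing is read from these counts.

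None of the 10 genes passed edgeR's quasi-likelihood test at an adjusted p under 0.05, and 1 of the 16455 genes tested did, a share of 0.00608%. At an unadjusted p under 0.05, 8 of the 10 were below the threshold (3 higher, 5 lower), against 14.4% of all genes. DESeq2 called 7 of the 10, with Trp63, Fat2 and Pkp1 higher and Dsg2, Dsc2, Dsp and Sfn lower, against 6.38% of the genes to which it gave an adjusted p. The set was chosen on this contrast, so these counts too are a description, and nothing is read from them. The biological coefficient of variation was 46.8%, which shows how far libraries of 1 group differed from each other.

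Trp63 (ENSMUSG00000022510, chromosome 16, 25683763 to 25892102, plus strand, GRCm38) had 9.40, 14.7 and 11.4 CPM with high litter size (replicates 1, 3 and 4), against 0.751, 0.586 and 1.25 CPM with low litter size (replicates 1, 2 and 5). These levels rest on 184, 235 and 226 counts in the high libraries and 13, 11 and 32 counts in the low libraries. Each high library stood well above each low one. The mean level was 11.8 ± 2.66 CPM with high and 0.862 ± 0.344 CPM with low litter size (SD, n = 3 each). The ratio of summed counts, high over low and scaled for library size, was 12.8, with a 95% counting interval of 9.74 to 17.2 that covers counting error only. The log2 fold change was 3.76 (SE 0.44), it ranged from 3.55 to 4.13 with 1 library left out, and it was 3.46 between high replicate 4 and low replicates 1 and 5. Zp3, a coat protein of the growing oocyte, had 0, 0.437 and 7.34 CPM across the high libraries, against 1.68, 0 and 7.41 CPM across the low ones. Zp3 was highest in high replicate 4 within its group, where Trp63 was highest in replicate 3, and both genes were highest in low replicate 5 within the low group. Across the 12 tested oocyte markers, 7 had positive and 5 negative log2 fold changes, with a median of 0.071 no call by edgeR or DESeq2 and 0 at an unadjusted p under 0.05. That median was -3.02 without high replicate 4 and 1.28 without low replicate 5. The summed level of the 16 listed oocyte markers was 21.9 to 129 CPM in the high and 13.1 to 96.0 CPM in the low libraries. In high replicate 1, 58.2 of the 60.8 CPM came from Kit, a receptor that other ovarian cells make too. The part of oocytes in the level of Trp63 was not tested.

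Fat2, an atypical cadherin whose fly counterpart guides collective cell migration (ENSMUSG00000055333, chromosome 11, 55250609 to 55336564, minus strand), was nearly absent from the low libraries. It had 10.02, 9.93 and 15.6 CPM across the high libraries, against 0.462, 0.0533 and 0.156 CPM across the low ones, from 196, 159 and 310 counts in the high against 8, 1 and 4 in the low. The means were 11.8 ± 3.24 CPM with high and 0.224 ± 0.213 CPM with low litter size (SD, n = 3 each). All 3 high libraries stood far above all 3 low ones, and the low levels lay close to the counting floor. The scaled ratio of summed counts was 56.9, with a counting interval of 33.1 to 107.5. Its log2 fold change was 5.72 (SE 0.74), and leaving out 1 library at a time gave 5.28 to 6.68. Between high replicate 4 and low replicates 1 and 5 it was 5.66.

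**Figure D2:**
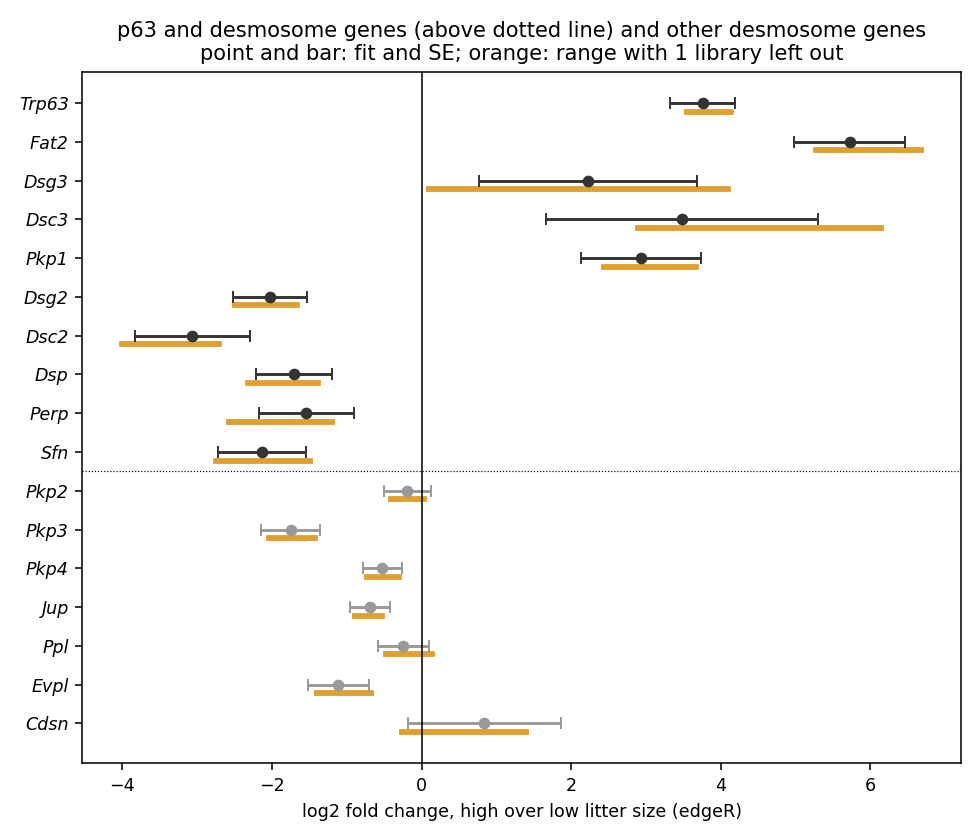
Log2 fold change, high over low litter size, of the 10 genes (above the dotted line) and of the other tested desmosome genes, with black or grey bars of 1 standard error either way and orange bars for the range with 1 library left out. Trp63, Fat2, Dsg3, Dsc3 and Pkp1 lie to the right of 0, from 2.23 for Dsg3 to 5.72 for Fat2, and Dsc2 lies farthest to the left at -3.07.

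The 4 desmosomal cadherins differed in pairs, with the widely made Dsg2 and Dsc2 at lower mean levels in the high group and the basal Dsg3 and Dsc3 at higher ones. Dsg2 (ENSMUSG00000044393, plus strand) had 17.9, 23.0 and 41.9 CPM across the high libraries, against 163, 121 and 54.6 CPM across the low ones. Dsc2 (ENSMUSG00000024331, minus strand) had 12.0, 12.9 and 45.3 CPM across the high libraries, against 281, 244 and 64.0 CPM across the low ones. For both genes every high library lay below every low one, with high replicate 4 and low replicate 5 closest to each other. Dsg2 averaged 27.6 ± 12.7 CPM with high and 113 ± 54.8 CPM with low litter size, and Dsc2 averaged 23.4 ± 19.0 CPM with high and 196 ± 116 CPM with low litter size (SD, n = 3 each). The log2 fold changes were -2.03 (SE 0.49) for Dsg2 and -3.07 (SE 0.77) for Dsc2, and with 1 library left out they ran from -2.49 to -1.67 for Dsg2 and from -4.001 to -2.71 for Dsc2. Between high replicate 4 and low replicates 1 and 5 they were -1.41 for Dsg2 and -1.96 for Dsc2.

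Dsg3, the desmoglein targeted by autoantibodies in pemphigus vulgaris (ENSMUSG00000056632, plus strand), had 4.65, 0.874 and 30.6 CPM across the high libraries, against 6.35, 1.07 and 0.351 CPM across the low ones. The groups overlapped, and high replicate 4 alone held most of the high group's counts, 608 beside 91 and 14. The means were 12.0 ± 16.2 CPM with high and 2.59 ± 3.28 CPM with low litter size (SD, n = 3 each). Without that library the log2 fold change was 0.097, against 2.23 (SE 1.45) with all 6, and without low replicate 1 it was 4.09. Between high replicate 4 and low replicates 1 and 5 it was 3.18. Dsc3 (ENSMUSG00000059898, minus strand) had 5.47, 0 and 4.88 CPM across the high libraries, against 0.866, 0 and 0.0780 CPM across the low ones. High replicate 3 and low replicate 2 had no count of it, so the groups overlapped at 0 although the other high libraries had 107 and 97 counts and the other low libraries 15 and 2. The means were 3.45 ± 3.001 CPM with high and 0.315 ± 0.479 CPM with low litter size (SD, n = 3 each). The log2 fold change of 3.48 (SE 1.82) became 6.14 at the highest and 2.89 at the lowest when 1 library was left out, and 3.38 between high replicate 4 and low replicates 1 and 5.

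These 4 genes are neighbours. In the GENCODE M21 annotation a cluster of 9 protein-coding desmosomal cadherin genes spans 643.6 kb of chromosome 18 (19960930 to 20604521, GRCm38), in the order Dsc3, Dsc2, Dsc1, Dsg1c, Dsg1a, Dsg1b, Dsg4, Dsg3 and Dsg2. Dsc3 (19960930 to 20002351) and Dsc2 (20030633 to 20059554) are next to each other at one end, and Dsg3 (20510274 to 20547459) and Dsg2 (20558074 to 20604521) at the other. The differences thus had opposite signs between direct neighbours at both ends. The 5 genes between them, among them genes of the upper layers of skin and of hair, did not pass the filter, with at most 28 counts in any library. Dsg1c was the only one of these 5 whose groups did not overlap, with 0, 0 and 1 counts in the high and 28, 24 and 11 counts in the low libraries. It was singled out after its values were seen, and reads of Dsg1a, Dsg1b and Dsg1c, which are close copies, may be split among them by the quantification.

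**Figure D3:**
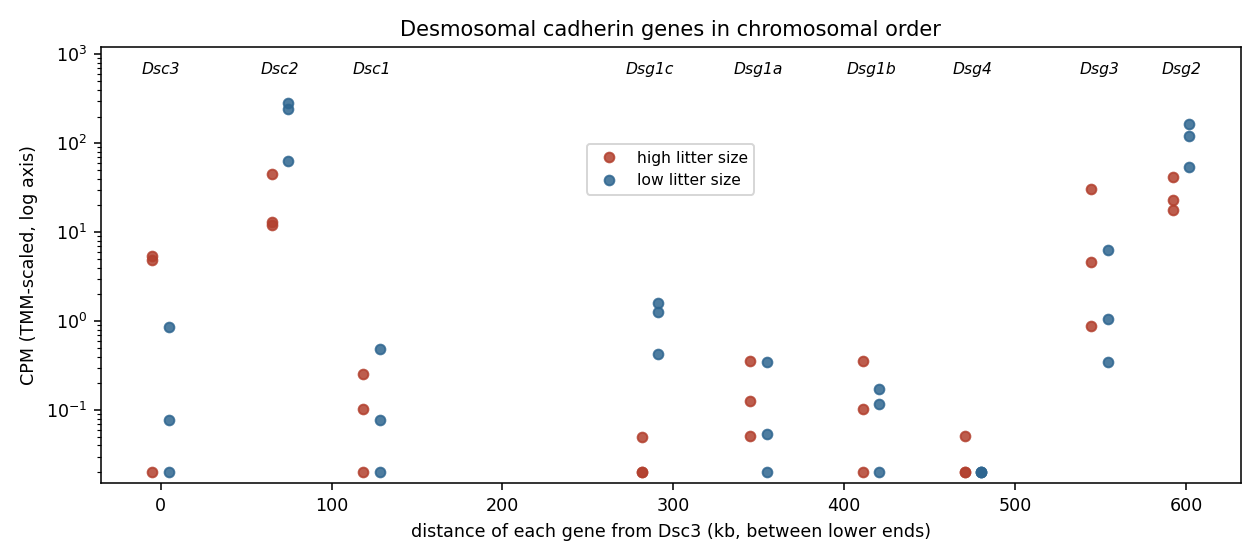
Levels of the 9 desmosomal cadherin genes in CPM on a log axis, placed by their distance in kb along the cluster, with points for single libraries and values below 0.02 CPM, 0 included, drawn at 0.02. At both ends a gene with a higher mean in the high group, Dsc3 or Dsg3, stands beside one that is lower in all 3 high libraries, Dsc2 or Dsg2, and the 5 genes between them reach at most 1.62 CPM.

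In the desmosomal plaque, Dsp, the desmoplakin that anchors keratin filaments (ENSMUSG00000054889, chromosome 13, 38151294 to 38198577, plus strand), had 59.4, 49.5 and 136 CPM across the high libraries, against 372, 277 and 151 CPM across the low ones. The groups did not overlap, but high replicate 4 and low replicate 5 were close. The means were 81.8 ± 47.5 CPM with high and 267 ± 111 CPM with low litter size (SD, n = 3 each), and the log2 fold change was -1.71 (SE 0.50), with a range of -2.32 to -1.39 when 1 library was left out. Pkp1, a plakophilin that strengthens the desmosomes of stratified epithelium (ENSMUSG00000026413, chromosome 1, 135871395 to 135919207, minus strand), went the other way, with 6.13, 4.62 and 10.1 CPM across the high libraries, against 1.68, 0.160 and 0.896 CPM across the low ones. No low library reached a high one, and the means were 6.95 ± 2.83 CPM with high and 0.911 ± 0.758 CPM with low litter size (SD, n = 3 each). Its log2 fold change was 2.93 (SE 0.81) and stayed between 2.435 and 3.67 with 1 library left out; between high replicate 4 and low replicates 1 and 5 it was 2.95, whereas that of Dsp was -0.97.

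Perp, a small membrane protein of desmosomes whose gene is activated by p53 and p63 (ENSMUSG00000019851, chromosome 10, 18845020 to 18857073, plus strand), had 28.6, 24.0 and 106.6 CPM across the high libraries, against 214.7, 151 and 97.3 CPM across the low ones. High replicate 4 lay above low replicate 5, so the groups overlapped around means of 53.1 ± 46.4 CPM with high and 154 ± 58.8 CPM with low litter size (SD, n = 3 each). The log2 fold change was -1.54 (SE 0.63), which became -2.58 without high replicate 4 and was -0.58 between that library and low replicates 1 and 5. Sfn, the 14-3-3 sigma protein that restrains the cell cycle in keratinocytes and is a target of p53 (ENSMUSG00000047281, a single exon of 1613 bases on chromosome 4, 133600556 to 133602168, minus strand), had 7.62, 10.2 and 22.3 CPM across the high libraries, against 101.4, 45.5 and 29.4 CPM across the low ones. All high libraries were below all low ones, with means of 13.4 ± 7.82 CPM with high and 58.8 ± 37.8 CPM with low litter size (SD, n = 3 each). The log2 fold change was -2.13 (SE 0.59), it ran from -2.75 to -1.49 with 1 library left out, and it was -1.58 between high replicate 4 and low replicates 1 and 5.

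In each group 1 library held the top level of most of the genes. High replicate 4 was the highest of its group for 8 of the 10, with Trp63 (highest in replicate 3) and Dsc3 (highest in replicate 1) as the exceptions. Low replicate 1 was the highest of its group for 9 of the 10, the exception being Trp63, which was highest in replicate 5. The 5 genes with lower levels in the high group followed each other over the 6 libraries, with Pearson r of log2 CPM between 0.938 and 0.994 and Spearman rho between 0.886 and 1 in 10 pairs. These correlations describe 6 points that share library, depth and the group difference itself. For Dsp they were 0.979 with Dsg2, 0.989 with Dsc2, 0.982 with Perp and 0.972 with Sfn. Without high replicate 3 and low replicate 1, the libraries farthest from the median of Dsp, r was 0.961 to 0.994 over 4 libraries.

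To compare levels between genes, counts were divided by the length of the longest coding transcript. In the high group the mean level per kb ran, in CPM per kb, from 27.2 for Perp, 8.52 for Dsp, 8.29 for Sfn, 5.06 for Dsc2 and 4.79 for Dsg2 down to 2.20 for Trp63, 1.94 for Dsg3, 1.49 for Pkp1, 0.815 for Fat2 and 0.647 for Dsc3. Among neighbours in this order only Dsg2 and Trp63 had ranges over libraries that did not overlap. In the low group the same 5 genes led, with 79.1 for Perp, 42.4 for Dsc2, 36.4 for Sfn, 27.8 for Dsp and 19.6 for Dsg2. They were followed by Dsg3 at 0.417, Pkp1 at 0.195, Trp63 at 0.161, Dsc3 at 0.0590 and Fat2 at 0.0154 CPM per kb. Only Dsg2 and Dsg3 did not overlap there. Even in the high group, Trp63, Dsg3, Pkp1, Fat2 and Dsc3 therefore had lower mean levels per kb than the other 5 genes.

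The balance within each family was set out as a share of counts per length. Dsg3 made up 19.4, 3.41 and 40.4% of Dsg2 and Dsg3 together in the high libraries, against 3.49, 0.811 and 0.592% in the low libraries, and Dsc3 made up 28.3, 0 and 8.55% of Dsc2 and Dsc3, against 0.267, 0 and 0.106%. In both cadherin families the groups overlapped. Pkp1 made up 10.98, 4.92 and 11% of the 3 plakophilins Pkp1, Pkp2 and Pkp3 across the high libraries, against 1.17, 0.129 and 1.17% across the low ones. Pkp3, a plakophilin of simple and stratified epithelia, made up 19.3, 12.7 and 18.7% in the high and 44.0, 37.0 and 33.0% in the low libraries. Pkp2, which is also made in simple epithelium and heart, made up 69.7, 82.4 and 70.3% in the high and 54.8, 62.9 and 65.8% in the low libraries. All 3 shares separated the groups, with those of Pkp1 and Pkp2 higher and that of Pkp3 lower in the high group. The level of Pkp2 itself overlapped between the groups (log2 fold change -0.19, SE 0.31). It was 24.3, 48.3 and 40.4 CPM across the high libraries, against 49.0, 48.7 and 31.5 CPM across the low ones. Krt5, the basal keratin, made up 42.9, 38.0 and 50.8% of Krt5 and Krt8 together across the high libraries, against 0.231, 1.99 and 0.0958% across the low ones, Krt8 being the keratin of simple epithelium.

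**Figure D4:**
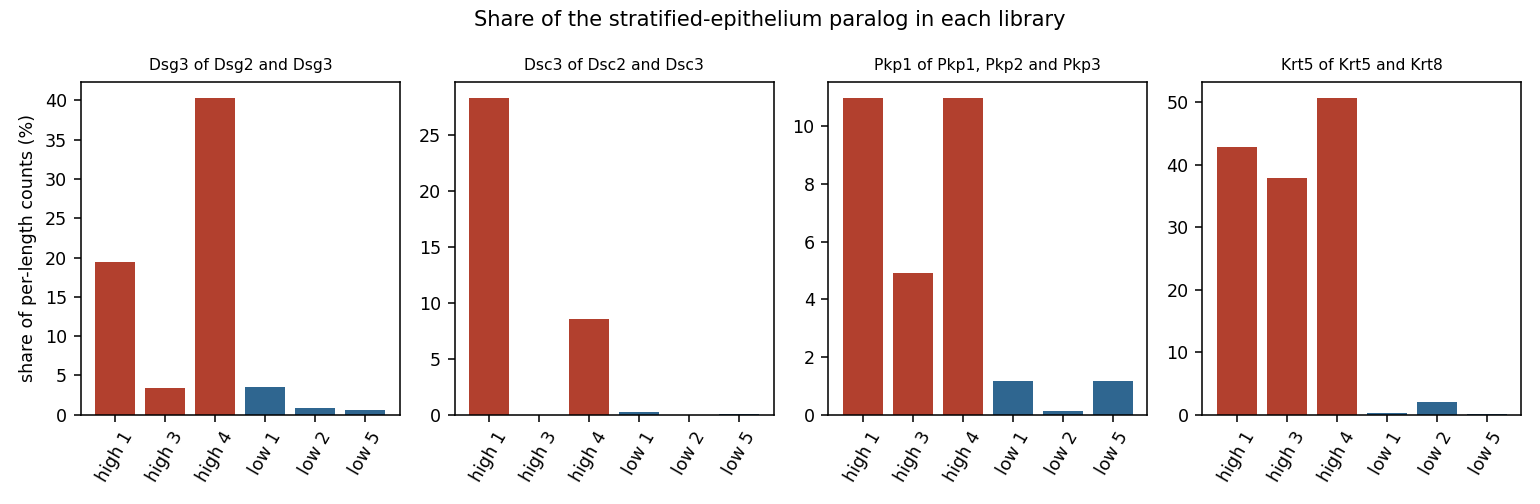
Share, in percent of counts per length, of the family member typical of stratified epithelium in each library, with high litter size on the left of each panel and a separate vertical scale for each panel. Bars are single libraries, and a bar of 0 is not visible. The Krt5 share lies at 38.0 to 50.8% in the high libraries and at 0.0958 to 1.99% in the low libraries, while the Dsg3 and Dsc3 shares overlap.

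Beside the counts on the related lists below, 14.4% of all genes had an unadjusted edgeR p under 0.05 and DESeq2 called 6.38%. The other desmosome genes were mostly at lower levels in the high group. Of 7 tested, 1 had a positive and 6 a negative log2 fold change, with a median of -0.53, and edgeR called 0, while 3 had an unadjusted p under 0.05. Pkp3 had 6.75, 7.43 and 10.7 CPM across the high libraries, against 39.4, 28.7 and 15.8 CPM across the low ones (log2 fold change -1.75, SE 0.39), and it was the 1 gene of the list that DESeq2 called. Evpl, the plakin envoplakin, had -1.11 (SE 0.41), and Jup, the plakoglobin shared by desmosomes and adherens junctions, had -0.69 (SE 0.26) with groups that overlapped. Of the 12 genes of hemidesmosomes and the epithelial basement membrane, 9 had negative log2 fold changes (median -0.64). Itgb4, the integrin subunit of hemidesmosomes (-1.50, SE 0.39), was lower in every high library. Col17a1, the hemidesmosomal collagen of basal keratinocytes, was higher in each, with 18.1, 3.12 and 15.7 CPM against 2.25, 2.35 and 1.05 CPM in the low libraries. Itga6, the partner of Itgb4, had -1.05 (SE 0.41) with groups that overlapped. edgeR called 0 of these 12 genes, of which 7 had an unadjusted p under 0.05, and DESeq2 called 5 (1 higher, 4 lower).

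The keratins of stratified epithelium had the largest median among the related lists, 3.35, with 10 of 11 tested genes positive. Without high replicate 4 the median was 0.52 and 6 of the 11 were positive, so the size of the median rested on that library. Krt5, the main keratin of basal cells, had 81.5, 68.2 and 206.6 CPM across the high libraries, against 2.89, 12.9 and 0.429 CPM across the low ones. Krt15, a keratin of basal and stem-like keratinocytes, had 39.3, 5.12 and 32.0 CPM across the high libraries, against 0.231, 0.213 and 0.740 CPM across the low ones. Both separated the groups. Krt14, which pairs with Krt5 in basal cells, had 30.5, 1.62 and 193 CPM with high and 6.07, 0.533 and 0.429 CPM with low litter size, so high replicate 3, which had Krt5 and Trp63, held little Krt14 and the groups overlapped. Krt17, a keratin of appendages and wounded skin, went the other way, with 1.84, 1.19 and 4.37 CPM with high and 9.99, 14.3 and 9.32 CPM with low litter size. edgeR called 0 of the 11, with 4 at an unadjusted p under 0.05 (3 higher, 1 lower), and DESeq2 called 3 (2 higher, 1 lower). High replicate 4 also held 183 CPM of Krt13, a keratin of internal stratified epithelia, and 108 CPM of Krt6a, a keratin of wounded skin with a close copy in Krt6b; these genes were picked out after their values were seen.

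Among 11 tested genes of the cornified envelope and late differentiation, 8 were positive (median 1.38), but without high replicate 4 the median was -0.13 and 5 were positive. Ly6d, a surface protein of differentiating keratinocytes, had 4.70, 25.4 and 74.6 CPM across the high libraries, against 3.81, 0.906 and 2.88 CPM across the low ones. The log2 fold change of Ivl, the envelope protein involucrin, was 4.31 (SE 1.40), but it rested on high replicate 3 with 16.5 CPM, and without that library it was 1.34. Lypd3, another surface protein of upper layers, had 3.04 (SE 1.005). edgeR called 0 of these 11, with 4 at an unadjusted p under 0.05, and DESeq2 called 2, both higher.

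For the p53 family and its targets, 10 of 14 tested genes were positive (median 0.39), with 0 calls by edgeR, 5 at an unadjusted p under 0.05 and 1 by DESeq2. Eda2r, a receptor of the TNF receptor family, was that call, with 30.9, 11.8 and 23.4 CPM with high and 9.53, 6.56 and 5.61 CPM with low litter size. Sesn1, a stress-response protein, had a log2 fold change of 0.97 (SE 0.29) and Bbc3, a killer protein of the BH3 class that acts in oocytes downstream of p63, had 1.22 (SE 0.47). Trp53 itself had 46.8, 30.8 and 47.2 CPM with high and 54.2, 52.5 and 58.7 CPM with low litter size. Trp73, the third member of the family, had 0.869, 0.125 and 3.77 CPM with high and 0.116, 0.0533 and 0.624 CPM with low litter size, so the groups overlapped. Of 26 tested partners and targets of p63 in epidermis, 17 were positive and 9 negative (median 0.42), with 0 calls by edgeR, 7 at an unadjusted p under 0.05 and 5 by DESeq2 (2 higher, 3 lower). Klf4, a barrier factor of the epidermis that is also widely made, had 38.1, 51.1 and 32.9 CPM with high and 173, 180.8 and 101.6 CPM with low litter size (edgeR quasi-likelihood adjusted p = 0.14). Hes1, a Notch target that deltaNp63 represses in keratinocytes, had -1.36 (SE 0.24) and Igfbp3, a binding protein of insulin-like growth factors, had 1.55 (SE 0.33).

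The adherens junction list had 8 negative of 11 log2 fold changes (median -0.35), led by Cdh1, the E-cadherin, with 102.6, 81.8 and 140.6 CPM with high and 538, 408 and 217.9 CPM with low litter size. Nectin4 had -1.65 (SE 0.51) and Nectin1 0.85 (SE 0.31), both adhesion molecules of the same family. edgeR called 0, with 3 genes at an unadjusted p under 0.05, and DESeq2 called 2, both lower. Of the 6 other Fat and Dachsous cadherins, 4 were positive (median 0.65, and 0.046 without high replicate 1). Dchs2 had 3.99, 2.75 and 3.02 CPM with high and 0.231, 0.747 and 0.468 CPM with low litter size, Fat4 had a log2 fold change of 1.66 (SE 0.42) and Fat3 of 1.29 (SE 0.57). edgeR called 0 of these 6, with 2 at an unadjusted p under 0.05, and DESeq2 called Dchs2 and Fat4, both higher. The 6 genes of the 14-3-3 family that are not Sfn lay on both sides of 0 (2 positive, 4 negative, median -0.18), with Ywhaq at -0.78 (SE 0.23), Ywhah at -0.44 (SE 0.19) and Ywhag at 0.95 (SE 0.46). Ywhab had the highest value, 1.17 (SE 0.64), with 1224 CPM in high replicate 3, and 0.077 without that library; it was picked out after its values were seen. edgeR called 0 of the 6, with 1 at an unadjusted p under 0.05, and DESeq2 called 1, lower. Together 104 of 119 genes on the 9 related lists were tested, and edgeR called 0 and DESeq2 22 (10 higher, 12 lower). DESeq2 called 6.38% of all genes to which it gave an adjusted p. Between high replicate 4 and low replicates 1 and 5 the log2 fold change was 6.98 for Krt5, 5.94 for Krt15 and 5.90 for Krt14, against 4.46, 5.94 and 5.03 over all 6 libraries, but it was 0.43 for Bbc3, 1.28 for Ivl and 0.10 for Ywhag.

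**Figure D5:**
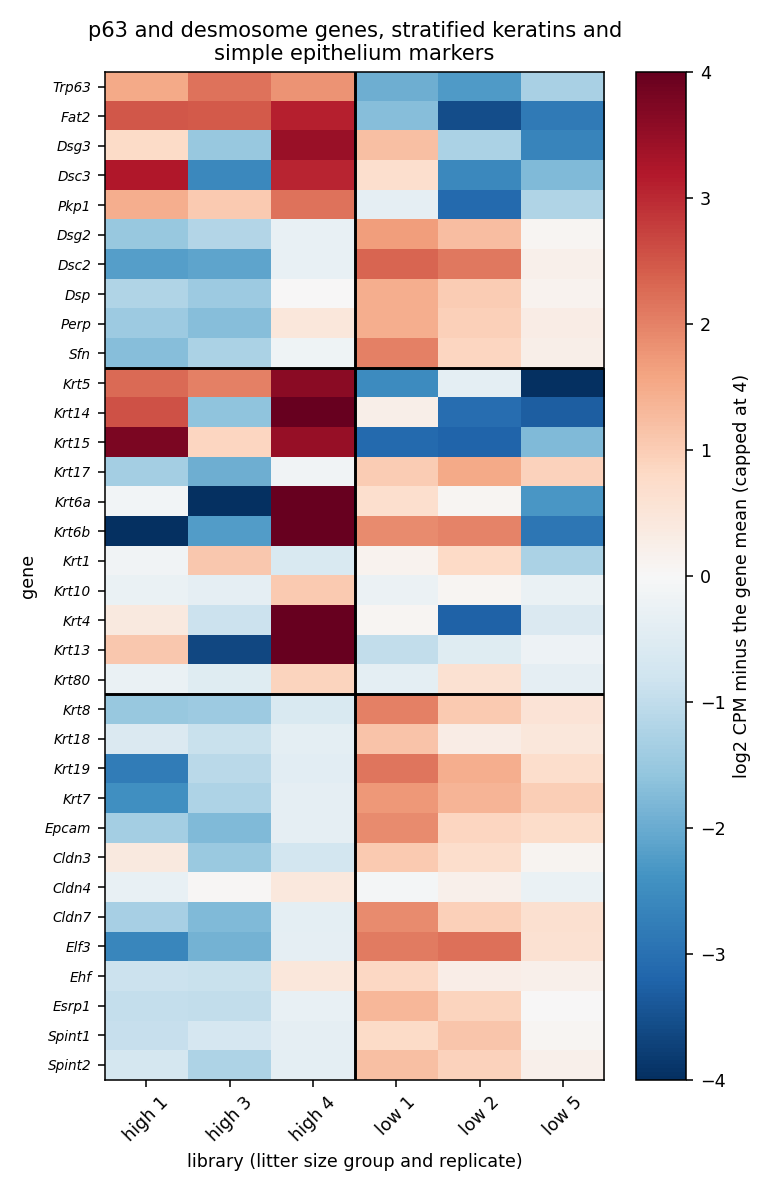
Level of the p63 and desmosome genes, keratins of stratified epithelium and simple epithelium markers in each library, as log2 CPM relative to the mean of the gene over the 6 libraries, with the high libraries on the left and colours capped at 4. Keratins that did not pass the filter on low counts are left out. The lower block of simple epithelium markers is low in the high libraries for 10 of its 13 genes without overlap, and Krt5 and Krt15 are high there.

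Lists of markers of other cell types differed between the groups in different directions. The 13 markers of simple epithelium, among which Krt8 (96.8, 99.3 and 178.5 CPM with high and 1112, 568 and 398.5 CPM with low litter size) and Epcam (69.1, 52.2 and 139 CPM with high and 664, 324 and 299 CPM with low litter size) are the defining ones, summed to 632.9 to 1257 CPM in the high and 2365 to 5280 CPM in the low libraries. Of these 13, 12 had negative log2 fold changes, the groups of 10 did not overlap, and DESeq2 called 10, all lower, while edgeR called 0 and 10 had an unadjusted p under 0.05. Over all tested genes, 10.8% were lower without overlap. In either direction, 14.4% had an unadjusted edgeR p under 0.05, and DESeq2 called 6.38% of those to which it gave an adjusted p. This list followed the direction of Dsg2, Dsc2, Dsp, Perp and Sfn, and its part in their difference was not tested. In bulk tissue, fewer cells of a type and less RNA per cell cannot be told apart. Between high replicate 4 and low replicates 1 and 5 the log2 fold change was -2.11 for Krt8 and -1.82 for Epcam. Markers of mesothelium and ovarian surface epithelium, 8 of 8 with positive log2 fold changes, summed to 147.3 to 417.4 CPM in the high and 81.5 to 135 CPM in the low libraries, and oviduct markers, 6 of 8 tested positive (2 of 8 without high replicate 4), to 224 to 1685 CPM in the high and 170 to 575 CPM in the low libraries. Their part in the levels of Trp63, Fat2 and Pkp1 was not tested. Hair follicle and skin markers, of which 5 of 12 were tested and 4 were negative, summed to 27.9 to 61.4 CPM in the high and 213 to 259.9 CPM in the low libraries, led by Lgr6 and Gjb2, while the hair keratins Krt27 and Krt71 were at 0 in all 6 libraries. On the list of myoepithelial and mammary markers, the milk protein genes Csn2, Csn3, Csn1s1, Wap and Lalba reached at most 0.404 CPM. Ltf, the lactoferrin that is made in milk and in other secretory epithelia, had 89.1, 813 and 3684 CPM with high and 14150, 4676 and 3186 CPM with low litter size, Mfge8 had 100.3 to 187.1 CPM with high and 143.4 to 219.9 CPM with low litter size, and Wfdc18 had 0.375 to 25.5 CPM with high and 3.18 to 11.3 CPM with low litter size. Adipocyte markers, 10 of 10 positive, summed to 2616 to 25150 CPM in the high and 352.9 to 3494 CPM in the low libraries, with high replicate 3 the highest. Markers of myoepithelium and mammary gland, smooth muscle, endothelium, macrophages and striated muscle had medians of -0.68, -0.90, 0.90, 0.28 and -0.25 on the log2 scale, granulosa markers -0.30 (-3.37 without high replicate 4) and theca and luteal markers 1.31 (-5.29 without high replicate 4), and edgeR called 0 genes on any of the 13 cell type lists. DESeq2 called 3 mesothelium markers and 2 adipocyte markers higher, 2 hair follicle and skin markers lower, and 0 oviduct markers, of which 5, 3, 3 and 1 had an unadjusted edgeR p under 0.05. On the lists given here by their medians alone, DESeq2 called 0 or 1 gene each, and 0 to 4 had an unadjusted edgeR p under 0.05.

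By their profile over the 6 libraries, out of 14497 genes with a mean of at least 1 CPM, those most like Trp63 were Pcdhgb7 (r 0.997), Pde1a (0.996), Ap3m2 (0.993), Ikzf1 (0.992), Pias2 (0.987), Lrrc8c (0.983), Camk2d (0.981) and Sema7a (0.978). Their differences between groups were far smaller than that of Trp63. Pcdhgb7, a protocadherin, had 5.67, 6.49 and 5.83 CPM across the high libraries, against 3.47, 3.47 and 3.90 CPM across the low ones. Those most like Dsp were Ptprf (0.998), Tpd52 (0.997), Actr3 (0.997), Csnk1g3 (0.996), Samd10 (0.996), Snx5 (0.995), Dlg1 (0.994) and Lama3 (0.994). Among these, Lama3, a laminin chain of the epithelial basement membrane, had 20.9, 13.2 and 52.0 CPM across the high libraries, against 230, 192 and 62.9 CPM across the low ones. Pearson r was computed on log2 CPM over 6 libraries that share their group difference, and the most alike of 14497 genes are close by selection.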

How the data were processed

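The deposited table holds estimated counts per gene for 6 ovarian libraries, made from polyadenylated RNA with a TruSeq kit, per the labels. The authors' tools were Trim Galore, kallisto and DESeq2 with the GRCm38 build, per the submitters' processing notes, and no versions are given in the sources used here. Because the deposited values are whole numbers, they were treated as kallisto estimates after rounding, a step no source records. kallisto shares reads between similar transcripts, so close paralogs are uncertain. Symbols were matched for 35869 of 36727 genes, and coordinates and lengths are from GENCODE M21.

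Genes were kept by filterByExpr (minimum count 10, minimum total 15), which left 16455. Counts were TMM-scaled and tested, high against low, by edgeR 4.0.16 (quasi-likelihood F test, under R 4.3.3), with Benjamini-Hochberg adjustment over all tested genes and a threshold of 0.05. DESeq2 1.42.0 (503 undefined adjusted p-values left undefined), limma voom 3.58.1, the likelihood ratio test, other scalings, other filters, robust dispersion and each library left out were alternatives. Correlations used log2 CPM with a prior count of 2. Summaries and plots used Python 3.11.15.

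The 10 genes and the lists were chosen with earlier results of these data known. The 10 genes were always named. Of each related list up to 3 genes of smallest p were named, with Krt5, Krt14, Krt15, Itga6, Itgb4, Jup, Trp53 and Trp73 in addition. 1 result that this rule names is not reported here. Of each cell type list up to 2 genes of highest level were eligible, with Gdf9, Zp3, Krt8 and Epcam in addition. The 8 genes most like Trp63 and Dsp were named, without predicted models. Of the listed genes, 1 (Tp53inp1) was not matched by symbol. Sequences are from the GENCODE M21 transcripts and the RefSeq promoter table.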

Additional observations from a re-analysis of the deposited data

How the results depend on the processing

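No paired analysis was possible because number 1 is the only replicate number found in both groups. No log2 fold change of the 10 genes (159 alternative values) changed sign under any setting. The same held for the 31 genes that the rule named from the related lists (493 alternative values). Of these values 13 and 34 passed a test that the quasi-likelihood test did not. Other genes given in the text could change sign. With 1 library left out, Krt6a ran from -1.005 to 5.13, Hsd3b1 from -7.04 to 2.70 and Zp3 from -3.87 to 1.63. The count of called genes depended on the test: against 1 with edgeR's quasi-likelihood test it was 1017 with DESeq2, 631 with the edgeR likelihood ratio test, 3 with limma voom and 2 with scaling by library size alone. It was 0 to 1 when 1 library was left out and 0 for high replicate 4 against low replicates 1 and 5, a comparison added after the data were seen in which the lone high library is assumed to vary like the low ones. Of the 10 genes, 0 were called in the main test, 7 by DESeq2 and 6 by the likelihood ratio test, in a set chosen on this contrast. Of the related lists, 0 were called in the main test, 22 by DESeq2 and 19 by the likelihood ratio test. The number of the 10 genes whose groups did not overlap was 7 under the other scalings and 7 or 8 with 1 library left out. For high replicate 4 against low replicates 1 and 5 it was 9. With fewer libraries there are fewer values that can overlap, so the counts with libraries left out do not test how stable the 7 is. Dsc3 did not pass the filter of at least 1 CPM in 3 samples. With a prior count of 0.5 the lowest r among the 5 genes with lower levels was again 0.938. Dsg3 rested on 1 library, with a log2 fold change of 0.097 without high replicate 4. Depth limits Fat2 in low replicates 2 and 5, Dsc3 in low replicates 2 and 5 and high replicate 3, and Pkp1 in low replicate 2, where counts were at most 4. The medians of lists with 1 library left out were chosen as an alternative once the values were known. The cause of the differences between tests was not tested.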
